A study of Mus musculus with 13 samples.

Results

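The transcripts described here are those of the insulin-like growth factor 1 (IGF1) axis and the IGF-binding proteins in gluteal white adipose tissue (WAT). They are 10 of the 34419 genes in the deposited counts: Igf1, its receptor Igf1r, the growth hormone receptor Ghr, the binding proteins Igfbp2, Igfbp3, Igfbp4, Igfbp5, Igfbp6 and Igfbp7, and the feedback inhibitor Socs2. They were listed by name for their place in the pathway. All 10 had counts, and 9 passed the filter on low counts; Igfbp2 did not. RNA was sequenced from gluteal WAT of male C57BL/6J mice, 7 housed at 22°C and 6 housed at 29°C, 1 library per mouse. The housing temperatures were kept from birth until 13 weeks of age. To limit insulation in either group, each cage held 1 mouse, sparse litter and nothing to build a nest from, and the rear of the body was depilated from weaning on. The comparison asks how the tissue differs between standard room temperature and thermoneutrality.

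Growth hormone binds its receptor GHR and, through the kinase JAK2, activates the transcription factor STAT5, which switches on Igf1 together with the feedback inhibitors Socs2 and Cish. IGF1 is made by the liver for the circulation and also locally, adipose tissue being one such source, and it signals through IGF1R, which is more abundant on adipocyte precursors than on mature fat cells. The classical IGF-binding proteins hold IGF1 outside cells and either keep it from the receptor or release it when they are cut by proteases. IGFBP7 differs from them in that it binds IGF1 weakly and is best known as a protein of the blood vessel wall and extracellular matrix.

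No member changed between the temperatures at P-adj below 0.1 (edgeR, Benjamini-Hochberg over 17779 genes), where 1.94% of all genes tested were called. By direction alone 3 of the 9 members tested were higher at 22°C and 6 lower. Their median log2 fold change was −0.11, and that of all genes tested was 0.0074. At an unadjusted p below 0.05 there was 1 member, Igfbp7, while 18.5% of all genes met that mark. DESeq2 called 1 member, Igfbp7, and 4.88% of the 34358 genes that it gave a p-value, a larger set that includes genes with low counts. Some of that set, such as Igfbp2, had no adjusted p and could not be called, so the share among genes that could be called was higher. Limma on the authors' log2 values, which called 2% of the 17779 genes, also called 1 member, again Igfbp7. Values of the 2 groups overlapped for all 9, whereas 1.24% of genes had groups that did not overlap. The 95% intervals of Igf1, Igf1r, Ghr, Igfbp3, Igfbp4 and Igfbp5 lay between −0.67 and 0.48 on the log2 scale, and those of Igfbp6 and Socs2 were wider. Among mice of the same temperature, Igfbp6 followed the level of progenitor and fibroblast markers and Igf1 ran opposite to skeletal muscle markers, and nearly all Igfbp2 counts came from 1 mouse.

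The libraries held between 22356637 and 25245785 counts. Totals fell into 2 clusters, with 5 libraries at 22°C at no more than 22857079 and 8 libraries, 2 at 22°C and all 6 at 29°C, at no less than 24821549. For the members and for Grb10, Htra1 and Stat5b, values within the 8 libraries with higher totals are therefore given beside the pooled ones. Markers of mature adipocytes, such as Adipoq and Plin1, summed to between 22422 and 35358 CPM (counts scaled to library size) in every library, so that the labelled tissue's defining markers were present throughout. All 12 markers of skeletal muscle had higher means at 22°C, none of them called and none at 0 throughout, and the median difference was 2.97 on the log2 scale. Their summed level lay between 714 and 81035 CPM at 22°C and between 89.1 and 6404 CPM at 29°C, and was highest in replicates 7 and 1 at 22°C. Nothing in the labels names muscle as part of the samples. In RNA from whole tissue, fewer cells of a type and less RNA per cell cannot be told apart.

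**Figure D1:**
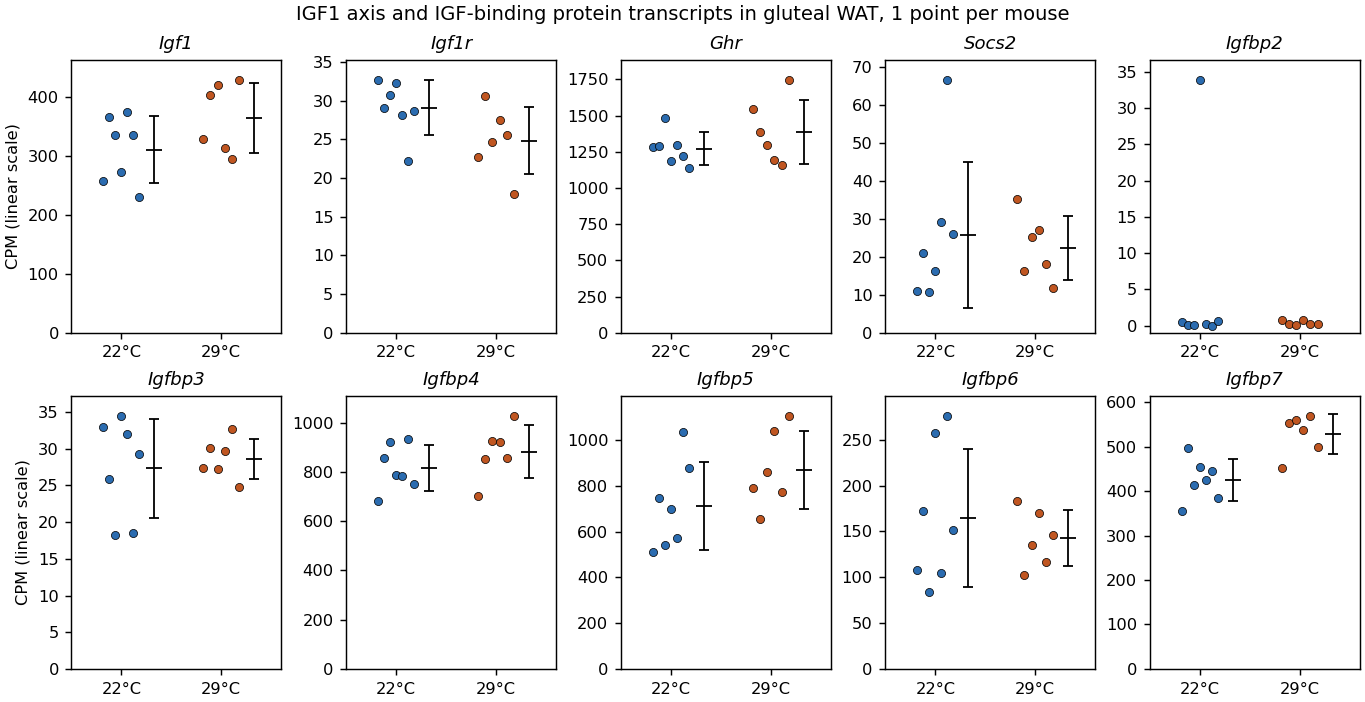
Level of each member in CPM (y axis, linear) in each mouse (points) at 22°C (blue, n = 7) and 29°C (orange, n = 6); bars beside the points give the mean ± SD and are left out for Igfbp2. The groups overlap for all 10 genes, for Igfbp7 5 of 7 mice at 22°C lie below every mouse at 29°C, and Igfbp2 is near 0 except in 1 mouse.

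Igf1 encodes the growth factor itself. Its level at 22°C had a lowest value of 231 CPM, a median of 335 CPM and a highest value of 376 CPM, and at 29°C the corresponding values were 295, 366 and 429 CPM. The groups overlapped, although 3 mice at 22°C lay below every mouse at 29°C and 3 mice at 29°C lay above every mouse at 22°C. Igf1 averaged 311 ± 56.5 CPM (SD, n = 7) in the 22°C group and 365 ± 59.2 CPM (SD, n = 6) in the 29°C group. Its log2 fold change was −0.23 with a standard error of 0.14 (95% interval −0.53 to 0.06, edgeR P-adj = 0.381). With the muscle score as a covariate the log2 fold change of Igf1 was −0.02. Within the libraries with higher totals it was −0.37 (edgeR P-adj = 0.490). The mice at 22°C in that subset are replicate 6, at 337 CPM, and replicate 7, at 231 CPM. Replicate 7 had the lowest Igf1 and the highest muscle score of all mice.

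The 250 bases before the annotated Igf1 start are shown because Igf1 is the ligand of the pathway, and those of Igfbp7 because it had the smallest p of the members, a choice made after its value was seen. Both are from RefSeq on GRCm38.p6 and are written in the direction of the gene, with each CG pair in capitals. Igf1 lies on the plus strand of chromosome 10 (chr10:87860861-87861110), and Igfbp7 on the minus strand of chromosome 5 (chr5:77408046-77408295).
Igf1: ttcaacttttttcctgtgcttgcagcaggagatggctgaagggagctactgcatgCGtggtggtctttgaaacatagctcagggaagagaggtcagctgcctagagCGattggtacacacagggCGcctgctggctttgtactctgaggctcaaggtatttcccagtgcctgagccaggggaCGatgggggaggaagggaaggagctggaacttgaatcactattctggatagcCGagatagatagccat
Igfbp7: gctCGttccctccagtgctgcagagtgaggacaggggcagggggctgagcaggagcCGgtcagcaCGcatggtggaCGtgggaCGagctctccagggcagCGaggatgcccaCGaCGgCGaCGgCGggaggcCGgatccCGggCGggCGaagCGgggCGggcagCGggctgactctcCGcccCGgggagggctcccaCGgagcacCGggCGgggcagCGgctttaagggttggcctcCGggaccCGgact
The Igf1 stretch held 5 CG pairs, close to the median of 6 over 32851 promoters in that table, of which 44.4% held fewer. The Igfbp7 stretch held 26, and 90.4% of promoters held fewer. Windows of 250 bases before to 50 bases after the start were found for 9 of the 10 members, 11 windows in all, with none for Socs2. The letters TTCNNNGAA, which read the same on both strands and form the core of STAT5 sites, were in none of the 11 windows and in 8.30% of all promoters, which says only that these letters are not in those windows.

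Ghr, the receptor through which growth hormone acts on fat cells, was the most abundant member in CPM. Its lowest, median and highest levels were 1136, 1286 and 1484 CPM at 22°C and 1159, 1341 and 1744 CPM at 29°C. The range at 22°C lay almost wholly inside that at 29°C. Means were 1272 ± 112 CPM (SD, n = 7) and 1387 ± 223 CPM (SD, n = 6), and the log2 fold change was −0.12 (95% interval −0.36 to 0.11, edgeR P-adj = 0.577). Igf1r, the receptor of IGF1, was at 22.2, 29.1 and 32.6 CPM (lowest, median and highest) at 22°C and at 17.9, 25.1 and 30.6 CPM at 29°C. The mean was higher at 22°C, at 29.1 ± 3.52 CPM (SD, n = 7) against 24.8 ± 4.29 CPM (SD, n = 6), with overlapping groups. Its log2 fold change was 0.23 (95% interval −0.02 to 0.48, edgeR P-adj = 0.317), and 0.03 within the libraries with higher totals.

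Igfbp7 encodes the weak IGF binder of vessels and matrix. Its lowest, median and highest levels were 355, 425 and 498 CPM at 22°C and 453, 545 and 568.05 CPM at 29°C. At 22°C 5 of 7 mice lay below every mouse at 29°C, and replicates 2 and 4 at 22°C reached into the range at 29°C. Igfbp7 averaged 425 ± 46.7 CPM (SD, n = 7) in the cooler group and 528 ± 44.4 CPM (SD, n = 6) in the warmer. The log2 fold change was −0.31 with a standard error of 0.088 (95% interval −0.50 to −0.12), the unadjusted p was 0.00327 and the P-adj was 0.118 with edgeR, so that Igfbp7 missed the threshold of 0.1. The log2 fold change was −0.32 with DESeq2 (P-adj = 0.00940) and −0.26 (P-adj = 0.0986) when limma was run on the deposited log2 values. Leaving out each mouse in turn with edgeR gave P-adj from 0.0990 to 0.243, the lowest and only one below 0.1 without replicate 2 at 22°C, a fit that called 1.57% of genes. The log2 fold change was −0.36 within the libraries with higher totals (edgeR P-adj = 0.308) and −0.28 with the muscle score as a covariate (edgeR P-adj = 0.294). The summed level of 9 endothelial markers, such as Pecam1 and Cdh5, lay between 529.6 and 727 CPM at 22°C and between 535 and 766 CPM at 29°C. By direction 6 of the 9 were lower at 22°C and 3 higher, with none called. Of 7 markers of mural cells, which belong to vessel walls, 6 were lower at 22°C and 1 higher, again with none called. Their sum lay between 516 and 848 CPM at 22°C and between 621 and 734 CPM at 29°C. At 22°C the highest sum was in replicate 7, and the next, 644 CPM, in replicate 1. The part of vessel cells in the Igfbp7 difference was not tested.

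The other binding proteins lay closer to equality or varied more. Igfbp4, an inhibitory binding protein that the protease pappalysin-1 cuts, was at 679.6, 786 and 933 CPM (lowest, median and highest) at 22°C and 703, 889 and 1025 CPM at 29°C, with a log2 fold change of −0.11 (95% interval −0.33 to 0.11, edgeR P-adj = 0.604). Igfbp5, which also binds extracellular matrix, was at 511, 701 and 1034 CPM at 22°C and 657, 825 and 1103 CPM at 29°C, with a log2 fold change of −0.29 (95% interval −0.67 to 0.10, edgeR P-adj = 0.409). The groups overlapped for both. Igfbp5 was the tested member whose direction turned with the library totals, its log2 fold change being 0.12 within the libraries with higher totals. Igfbp3, the main carrier of IGF1 in blood, was at 18.3, 29.3 and 34.4 CPM at 22°C and 24.8, 28.5 and 32.6 CPM at 29°C, with a log2 fold change of −0.07 (95% interval −0.39 to 0.26, edgeR P-adj = 0.846). The whole range of Igfbp3 at 29°C fell within that at 22°C.

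Igfbp6, the binding protein that prefers IGF2, had the widest spread of the binding proteins tested. It was at 83.9, 152 and 275 CPM (lowest, median and highest) at 22°C and at 103, 141 and 183 CPM at 29°C. Replicates 6 and 4 at 22°C stood above all other mice, and the lowest mouse was also at 22°C. The log2 fold change was 0.21 (95% interval −0.37 to 0.79, edgeR P-adj = 0.720), from means of 165 ± 75.6 CPM (SD, n = 7) and 142 ± 30.6 CPM (SD, n = 6). Its size rested on those 2 mice, being 0.039 without replicate 6 and 0.069 without replicate 4 at 22°C. Within the libraries with higher totals, which hold replicate 6 but not replicate 4 at 22°C, it was 0.57. There Igfbp3 was at −0.27, Igfbp4 at −0.08 and Ghr at −0.24 on the log2 scale, and none of these genes was called, Igfbp6 included.

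**Figure D2:**
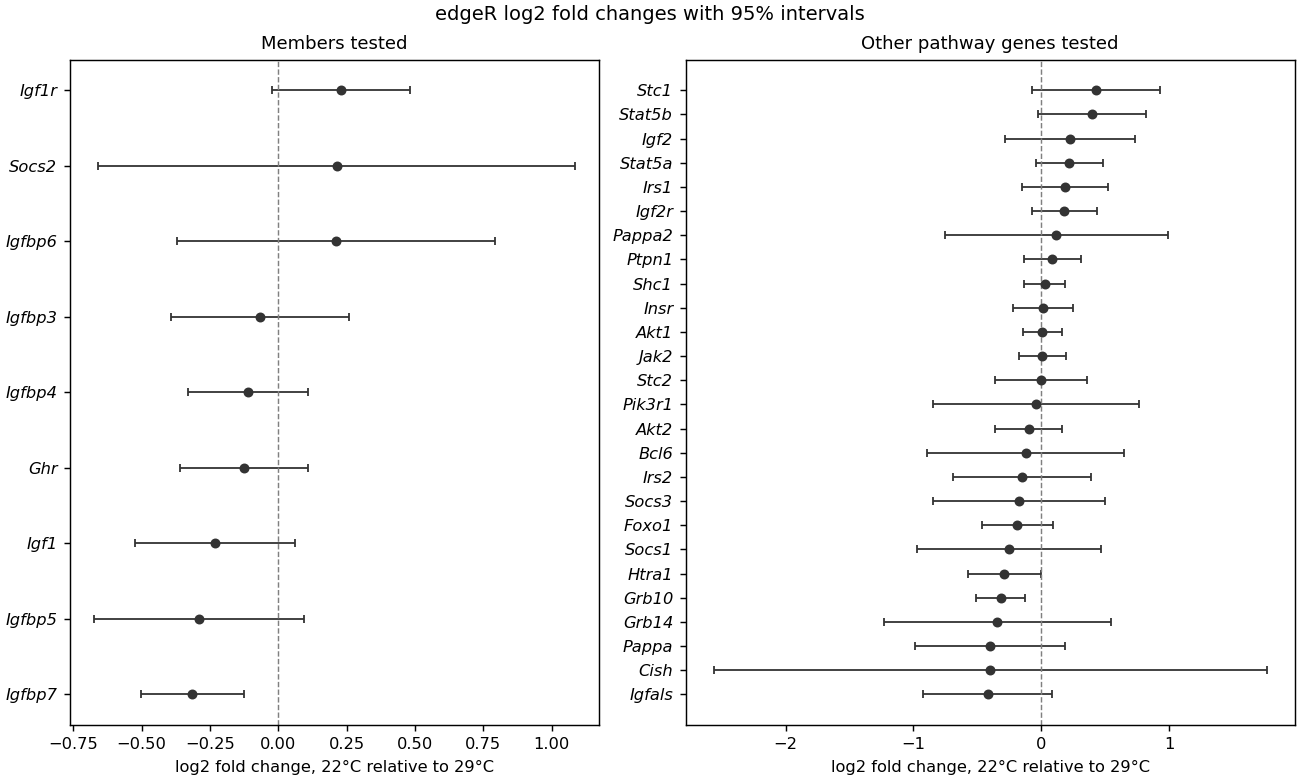
Log2 fold change of each gene at 22°C relative to 29°C (x axis; points) with its 95% interval (lines) for the 9 members tested (left) and 26 other genes of the pathway (right). Among members only the interval of Igfbp7, from −0.50 to −0.12, lies wholly on one side of 0, and none of these genes reached P-adj below 0.1.

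Igfbp2, a binding protein known as a target of leptin and for its insulin-sensitizing action, was almost not counted in this tissue except in 1 mouse. Of 892 counts in all libraries, 808 were in replicate 4 at 22°C, where its level was 33.9 CPM. The other mice at 22°C were between 0 and 0.633 CPM, replicate 6 having no count, and those at 29°C were between 0.0773 and 0.729 CPM. A count of 0 allows up to 3 counts, which is 0.116 CPM in replicate 6 (counting error only). Because of that single high mouse no fold change describes the groups: without a filter on low counts edgeR gave a log2 fold change of 3.87 (P-adj = 0.338), DESeq2 gave −0.45 after it replaced the count of 808 by 7, with no adjusted p, and the libraries with higher totals gave −0.14.

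The same mouse was high in a set of other genes. In replicate 4 at 22°C 22 genes, Igfbp2 included, reached at least 5 CPM and at least 10 times the highest of the other 12 libraries, a rule made after the values were seen, while each of the other libraries had 0 or 1 such gene. They included Upk3b at 147 CPM against at most 3.48 CPM elsewhere, Lrrn4 at 76.4 CPM against 5.30 CPM, Msln at 50.3 CPM against 1.84 CPM, Muc16 at 29.2 CPM against 0.738 CPM and Krt7 at 25.3 CPM against 0.768 CPM. Wt1, looked up afterwards, was at 15.8 CPM there and at most at 1.69 CPM in the others. Upk3b, Msln, Muc16, Lrrn4 and Wt1 are known from mesothelium, the cell layer that lines body cavities; the part of such cells in the Igfbp2 level was not tested. Igfbp2 and Igfbp5 are neighbours on chromosome 1, and Igfbp5 in that mouse, at 701 CPM, was the median of its group.

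**Figure D3:**
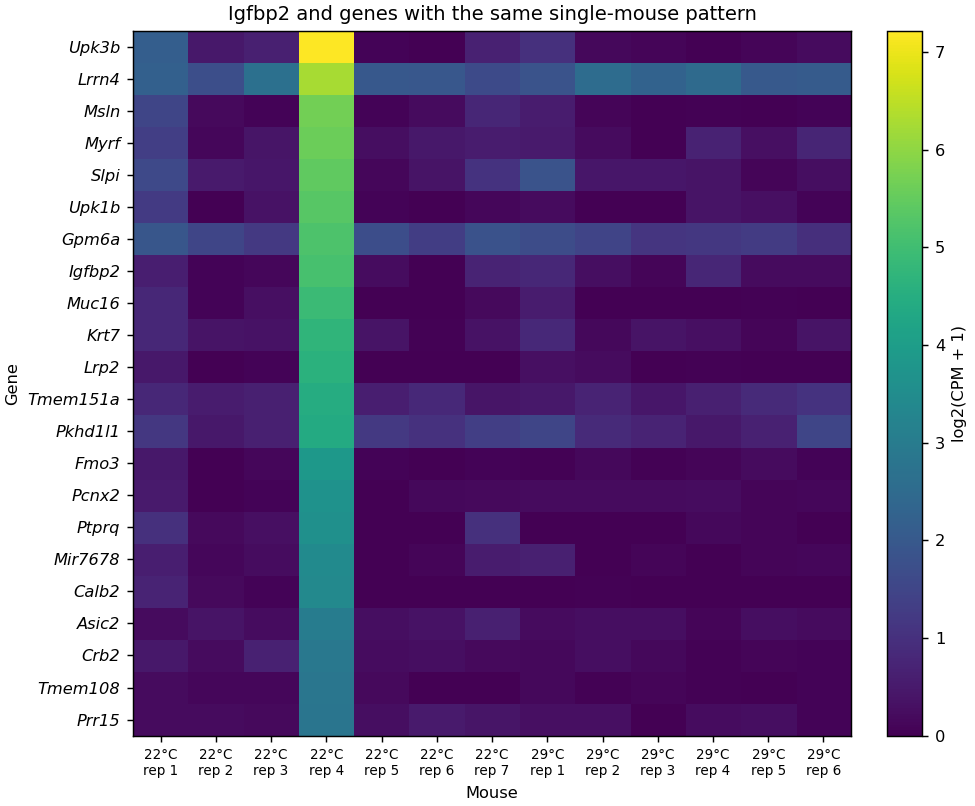
Level of Igfbp2 and 21 other genes (rows) in each mouse (columns), coloured by log2(CPM + 1). Replicate 4 at 22°C stands out in every row, with Igfbp2 at 33.9 CPM there and at most 0.729 CPM in the other 12 mice.

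Socs2, which damps growth hormone signalling, was the most variable member tested. Its lowest, median and highest levels were 10.6, 21.1 and 66.6 CPM at 22°C and 11.8, 21.7 and 35.2 CPM at 29°C. Replicate 6 at 22°C was the highest, and the remaining mice of both groups covered similar ranges. Means were 25.8 ± 19.3 CPM (SD, n = 7) and 22.3 ± 8.49 CPM (SD, n = 6), with a log2 fold change of 0.21 (95% interval −0.66 to 1.09, edgeR P-adj = 0.816). Without replicate 6 at 22°C the log2 fold change was −0.23, and within the libraries with higher totals, which hold that mouse, it was 1.04.

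Cish, the other feedback gene of the growth hormone receptor, and Bcl6, which growth hormone is known to repress, are set beside Socs2 here, both chosen after their values were seen. At 22°C Cish was at 7.38, 47.8, 2.58, 4.53, 111, 135 and 57.8 CPM in replicates 1 to 7. At 29°C it was at 129, 10.3, 131, 8.05, 133 and 3.16 CPM in replicates 1 to 6. No mouse lay between 10.3 and 47.8 CPM, and each temperature had mice on both sides of that gap. Bcl6 lay between 31.8 and 126 CPM at 22°C and between 53.6 and 159.8 CPM at 29°C. In the mice with Cish at or below 10.3 CPM, Bcl6 was at 80.0 CPM or more. In those with Cish at or above 47.8 CPM it was at 89.0 CPM or less, except at 123 CPM in replicate 7 at 22°C. How Bcl6 and Cish vary together was not tested. The mouse with the most Socs2, replicate 6 at 22°C, also had the most Cish, but Socs2 was 27.1 CPM in replicate 4 at 29°C, where Cish was 8.05 CPM, and 18.2 CPM in replicate 5 at 29°C, where Cish was 133 CPM. Igf1 lay between 231 and 429 CPM over all mice. The log2 fold change of Cish between temperatures was −0.40 with a 95% interval from −2.56 to 1.76 (edgeR P-adj = 0.865).

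**Figure D4:**
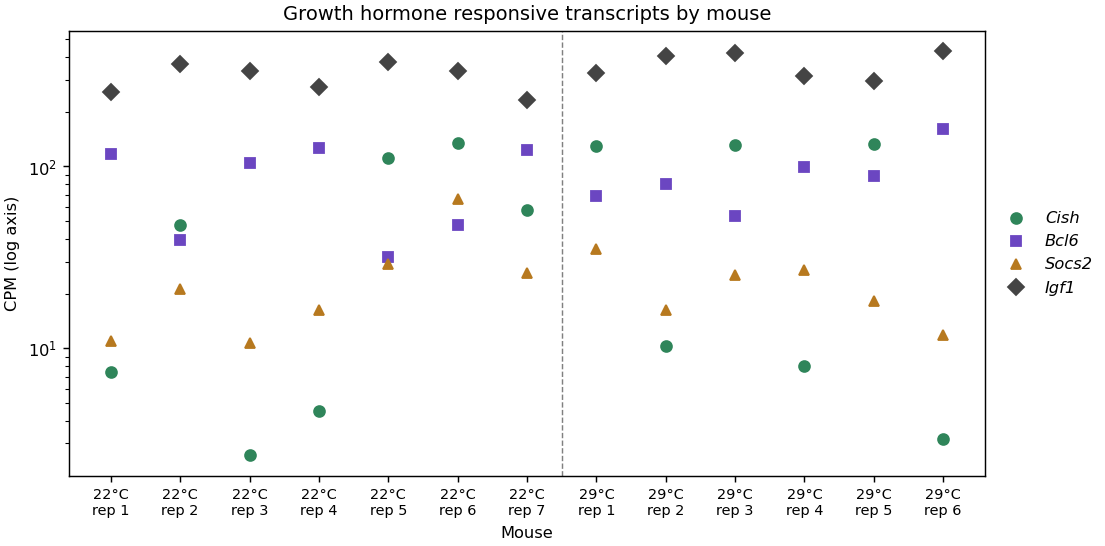
Levels of Cish, Bcl6, Socs2 and Igf1 in CPM (y axis, log scale) in each mouse (x axis), the dashed line parting 22°C from 29°C. Cish lies either at or below 10.3 CPM or at or above 47.8 CPM at both temperatures, while Igf1 stays between 231 and 429 CPM.

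Of 29 other genes of the pathway, 26 were tested and none was called (edgeR, P-adj below 0.1), 12 being higher at 22°C and 14 lower by direction alone. Their median was −0.02 on the log2 scale. At an unadjusted p below 0.05 there were 2 of the 26, Grb10 and Htra1, against 18.5% of all genes. DESeq2 called 1, Grb10, against 4.88% of the 34358 genes that it gave a p-value. Grb10, an adaptor that inhibits the insulin and IGF1 receptors, lay between 69.0 and 106 CPM at 22°C and between 97.6 and 120.1 CPM at 29°C. Its log2 fold change was −0.32 (95% interval −0.51 to −0.13, edgeR P-adj = 0.118), and DESeq2 gave P-adj = 0.0247. It was smaller within the libraries with higher totals, at −0.18 (edgeR P-adj = 0.544), with the cluster of totals as a covariate, at −0.17 (edgeR P-adj = 0.600), and with the muscle score, at −0.22 (edgeR P-adj = 0.330). Htra1, a secreted protease that can cut IGF-binding proteins, lay between 99.0 and 202 CPM at 22°C and between 156 and 199 CPM at 29°C, with a log2 fold change of −0.29 (edgeR P-adj = 0.267) that was −0.0080 within the libraries with higher totals. Without replicate 6 at 22°C both passed the edgeR threshold in a fit that called 3.7% of genes, Grb10 at P-adj = 0.0627 and Htra1 at P-adj = 0.0949.

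Stat5b, one of the transcription factors that growth hormone activates, was at 71.7, 92.6 and 185 CPM (lowest, median and highest) at 22°C and at 76.0, 82.2 and 90.4 CPM at 29°C. Its 2 highest mice, replicates 7 and 1 at 22°C with 185 and 146 CPM, were those with the most muscle marker transcripts. The log2 fold change was 0.40 (95% interval −0.03 to 0.82, edgeR P-adj = 0.3003). It was 0.08 with the muscle score as a covariate and 0.22 without replicate 7 at 22°C. Within the libraries with higher totals it was 0.68 (edgeR P-adj = 0.324). The mice at 22°C in that subset are replicate 7 and replicate 6, which was at 79.0 CPM. Of the rest, growth hormone itself had 4 counts in all and Igfbpl1 had 7, and the name Igfbp1 was matched to no gene in the deposited counts. Igf2, the second ligand, averaged 11.8 ± 4.95 CPM (SD, n = 7) in the 22°C mice and 10.05 ± 1.71 CPM (SD, n = 6) in the 29°C mice (edgeR P-adj = 0.652). Igfals, the partner of IGF1 and IGFBP3 in blood, was at 62.5 ± 22.3 CPM (SD, n = 7) and 83.7 ± 25.9 CPM (SD, n = 6) (edgeR P-adj = 0.361). Igf2 and Igfals were singled out after their values were seen.

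To set the members' levels against each other, CPM were divided by the length of each gene's exons in kilobases. On that scale the level of Igfbp7 had a median of 375 CPM per kb over the 13 mice, followed by Igfbp4 at 194, Ghr at 143, Igfbp6 at 131, Igfbp5 at 129, Igf1 at 33.9, Igfbp3 at 9.35, Socs2 at 2.22, Igf1r at 1.67 and Igfbp2 at 0.0918 CPM per kb. Igfbp7 exceeded Igfbp4 in all 13 mice, Igfbp5 exceeded Igf1 in 13 and Igf1 exceeded Igfbp3 in 13, without overlap of their ranges. The order of Ghr, Igfbp6 and Igfbp5 was not fixed, Ghr being above Igfbp6 in 8 mice and Igfbp6 above Igfbp5 in 5, and Socs2 exceeded Igf1r in 9. The 6 binding protein transcripts together came to 26.6 ± 5.74 times Igf1 per length at 22°C (SD, n = 7) and 25.4 ± 4.39 times at 29°C (SD, n = 6). Within their sum Igfbp7 made up 43.6 ± 4.35% at 22°C and 47.6 ± 4.21% at 29°C, Igfbp4 23.0 ± 3.15% and 21.7 ± 1.67%, Igfbp6 17.6 ± 5.49% and 14.0 ± 3.21%, and Igfbp5 14.5 ± 2.45% and 15.7 ± 2.27%.

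How the members varied together was examined over the 13 mice with the mean of each temperature subtracted from log2 CPM, so that temperature plays no part. Of 45 pairs none had an adjusted permutation p below 0.1, and 5 had an unadjusted p below 0.05. The strongest was Igfbp5 with Igfbp6 (Pearson r = 0.74, permutation p = 0.0101, adjusted 0.193; Spearman rho = 0.75, permutation p = 0.00865, adjusted 0.195), and r was 0.76 without the 2 mice farthest from the median of Igfbp5. Igf1r with Igfbp5 had r = −0.66 (permutation p = 0.00999, adjusted 0.193) and rho = −0.60 (permutation p = 0.0348, adjusted 0.313). The size of r depended on the mice included, being −0.31 without the 2 farthest mice and −0.67 within the libraries with higher totals. The 3 tested genes most like Igf1 by the same measure, given with no test, were Hdac1 (r = 0.97), Bcl2 (r = 0.91) and Dguok (r = 0.89).

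Each tested member was also set against the mean log2 CPM of 6 marker lists, 54 relations added after the data had been seen, of which 7 had an adjusted permutation p below 0.1 for Pearson's r and 5 below 0.05. Igfbp6 and the list of 9 progenitor and fibroblast markers, which holds Pdgfra, Dpp4 and Pi16, had r = 0.95 (permutation p = 2.0e-05, adjusted 0.00108) and rho = 0.97 (permutation p = 2.0e-05, adjusted 0.00108). Without the 2 mice farthest from the median of the list r was 0.93, and within the libraries with higher totals it was 0.91. The 2 mice with the most Igfbp6, replicates 6 and 4 at 22°C, had Pi16 at 678 and 418 CPM, and the mouse with the least, replicate 3 at 22°C, had it at 96.5 CPM. In the same order Dpp4 was at 77.4, 92.5 and 34.4 CPM, and Pdgfra differed less, at 99.0, 96.1 and 86.0 CPM. The highest Pdgfra level, 106 CPM, was in replicate 3 at 29°C, where Igfbp6 was at 135 CPM. Igfbp5 and the progenitor and fibroblast list had r = 0.80 (permutation p = 0.00415, adjusted 0.0448) and rho = 0.79 (permutation p = 0.00585, adjusted 0.0632), with r = 0.68 without the 2 farthest mice (permutation p = 0.0353, adjusted 0.245). Igfbp6 and the macrophage list had r = 0.76 (permutation p = 0.00389, adjusted 0.0448) and rho = 0.86 (permutation p = 0.000510, adjusted 0.0138), with r = 0.83 without the 2 farthest mice.

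Igf1 ran opposite to the skeletal muscle list, with r = −0.86 (permutation p = 0.000630, adjusted 0.0170) and rho = −0.81 (permutation p = 0.00263, adjusted 0.0374). Without the 2 mice farthest from the median of the list r was −0.83, and within the libraries with higher totals it was −0.89. The 2 lowest Igf1 levels, 231 CPM in replicate 7 and 257 CPM in replicate 1 at 22°C, were in the 2 libraries with the most muscle marker transcripts, and the highest, 429 CPM in replicate 6 at 29°C, was in the one with the least. Igfbp4 against the muscle list had r = −0.74 (permutation p = 0.00761, adjusted 0.0685) and rho = −0.69 (permutation p = 0.0146, adjusted 0.112), and r was −0.65 without the 2 farthest mice (permutation p = 0.0441, adjusted 0.265). Ghr against 7 markers of mural cells, the contractile cells of vessel walls, had r = −0.69 (permutation p = 0.00114, adjusted 0.0205) and rho = −0.80 (permutation p = 0.00277, adjusted 0.0374). Without the 2 farthest mice r was −0.83, but its adjusted p was above 0.1 (permutation p = 0.0215, adjusted 0.194). Igf1 against the mature adipocyte list had r = 0.71 (permutation p = 0.0111, adjusted 0.0860) and rho = 0.55 (permutation p = 0.0729, adjusted 0.323). Here too r depended on the mice included, being 0.38 without the 2 farthest mice and 0.62 within the libraries with higher totals. Within the 8 libraries with higher totals alone, none of the 54 relations had an adjusted p below 0.1 by the exact permutation test.

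**Figure D5:**
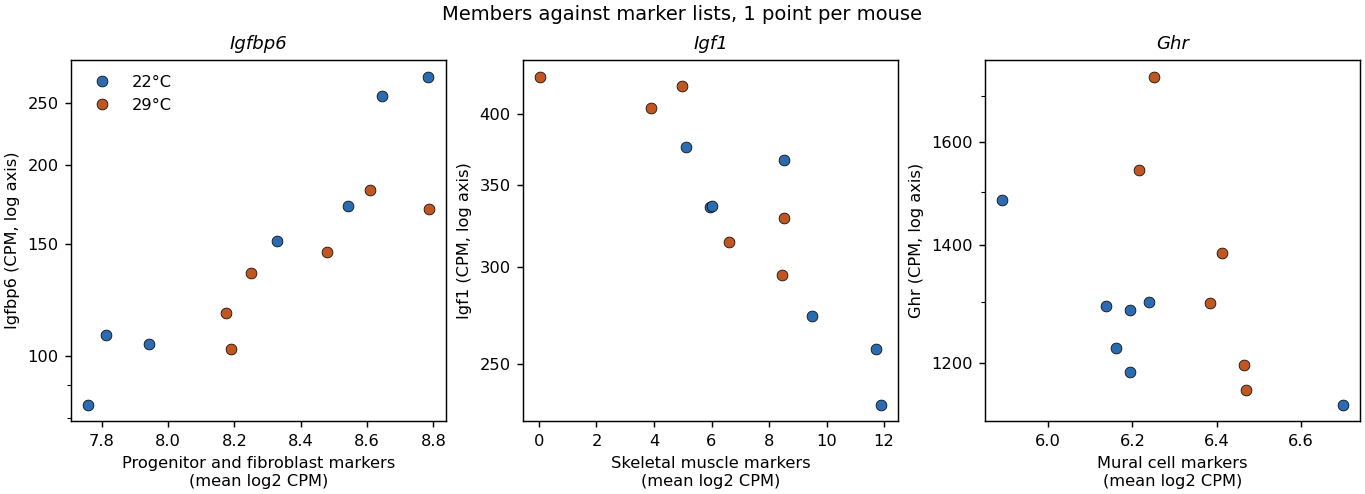
Levels of Igfbp6, Igf1 and Ghr in CPM (y axes, log scale) against the mean log2 CPM of progenitor and fibroblast, skeletal muscle and mural cell markers (x axes) in each mouse at 22°C (blue) and 29°C (orange). Igfbp6 climbs with its list (r = 0.95), and Igf1 (r = −0.86) and Ghr (r = −0.69) fall along theirs, with r computed after subtraction of each temperature's mean.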

How the data were processed

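RNA of gluteal WAT from 13 mice was sequenced. The authors aligned reads with STAR 2.7.5a, summed them over genes with featureCounts and deposited the raw counts, and they also deposited regularized log2 values made with DESeq2. The submitters' processing notes name GRCm39; the annotation and strand setting are not given in the sources used here, so that reads of overlapping, antisense or near-identical genes cannot be told apart. Gene names were matched by identifier. The members and gene lists were chosen with earlier results of these data known.

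Counts were analysed with edgeR 4.0.16 in R 4.3.3, using TMM normalization, filterByExpr, the quasi-likelihood F test with temperature alone and Benjamini-Hochberg adjustment over all genes tested; P-adj below 0.1 is called changed. The standard error is the log2 fold change divided by the root of F. TMM-scaled totals give CPM, with a prior count of 2 for log2 CPM. Alternatives were DESeq2 1.42.0 (also its size factors within edgeR), limma 3.58.1 on the authors' log2 values, other filters, robust fitting, a replicate block, leaving out each mouse, P-adj below 0.05, and muscle score or library-total cluster as covariates. The muscle score is the mean log2 CPM of 12 markers. Correlations use 100000 permutations within temperatures (two-sided), all 1440 for the 8 libraries with higher totals. Exon lengths come from GENCODE on GRCm38 and may differ from those the authors used. The fits and correlations were tested on simulated data.

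Named genes are all members, called genes of the pathway list and its 3 smallest p, the 3 genes most like Igf1, and the first genes of marker lists; others are marked in the text. Protein sequences are not used here. The replicates are separate mice by the labels. Totals between 22356637 and 25245785 counts put the limit for a count of 0 (3 counts) at 0.113 to 0.158 CPM, counting error only.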

Additional observations from a re-analysis of the deposited data

Results flagged for a closer look

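The level of Igfbp2 in replicate 4 at 22°C, 33.9 CPM, lay far from the 6 other mice of that group, whose highest was 0.633 CPM: the gap was 0.981 of the whole range, above Dixon's critical value of 0.568 for 7 samples. The level of Socs2 in replicate 6 at 22°C, 66.6 CPM, stood apart in the same way, with a gap of 0.667 of the range above the next mouse at 29.2 CPM. Chance flags about 1 in 20 groups, and 2 of the 30 groups looked at were flagged.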

How the results depend on the processing

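The number of all genes called moved from 345 to 1676 with DESeq2 (914 higher, 762 lower), 42 with no filter on low counts, 47 with the muscle score and 4 with the cluster of library totals as covariates, 8 within the libraries with higher totals, 40 at P-adj below 0.05, and 32 to 652 when 1 mouse was left out. Of the members, DESeq2 and limma on the authors' log2 values called 1 each (Igfbp7), and leaving out 1 mouse called 0 to 1. Of the other pathway genes DESeq2 called 1 (Grb10), and leaving out 1 mouse called 0 to 2. The marker list relations with an adjusted permutation p below 0.1 numbered 7 in the main setting, 4 without the 2 farthest libraries and 0 within the higher totals. The 4 include Igfbp3 with the endothelial list (adjusted permutation p = 0.0389), which is not among the 7 (adjusted permutation p = 0.378). Directions turned for Igfbp2 (3.87 with no filter) to −0.45 with DESeq2 and −0.14 within the higher totals; for Igfbp4 to 0.016 with the muscle score; for Igfbp5 to 0.13 with the cluster and 0.12 within the higher totals; and for Htra1 to 0.0023 with the cluster. Without 1 mouse, Igfbp3 ranged from −0.13 to 0.0096, turning without replicate 3 or 6 at 22°C, and Socs2 from −0.23 to 0.39. Their causes were not tested. Replicate numbers correlated between the groups at 0.0508 to 0.513, with 4 of 6 libraries closest to their own number, a hint of a shared factor in the data. The labels give none and replicate 5 fell short of 0.1, so the numbers were not used as pairs. The permutation tests of the correlations also took the mice as independent, and a shared factor could make their p-values too small. With the replicate numbers as a block 263 genes and no member were called, and Socs2 turned to −0.055. In that fit 3 members (Igf1r, Igfbp5 and Igfbp7) had an unadjusted edgeR p below 0.05, as did 3262 of all 17670 genes tested. Without the block it was 1 member and 3290 of 17779 genes. Because 5 of 7 libraries at 22°C and none at 29°C had low totals, temperature and total cannot be told apart in those 5.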
